A study of Mus musculus with 10 samples.

Results

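Colony-stimulating factors are secreted proteins that keep myeloid cells alive and set their numbers and state, and this account follows their receptors and ligands in the mouse brain. The 8 genes Csf2ra, Csf2rb, Csf2rb2, Csf1r, Csf1, Csf3r, Il34 and Il3ra were taken by name, with every probe set whose annotation names only that gene, which gave 15 of the 45037 probe sets that are no controls, and all 8 of the 18193 named genes had at least 1. They were chosen by a measured value, the difference of Csf2ra between the groups in these same data, so their differences between the groups are given as a description with no test. Probe set 1450200_s_at, which names both Csf2rb2 and Csf2rb, was not counted.

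The study compared 5 mice labelled mPGES-1 KO with 5 mice labelled WT. By that label the KO mice lack microsomal prostaglandin E synthase-1, the inducible enzyme that makes prostaglandin E2 and is encoded by Ptges. Both groups were of the DBA1/lacJ strain, received lipopolysaccharide (LPS, a bacterial cell wall component) at 120 µg/kg into the peritoneum, and had their brains removed 5 h later. Laser capture was used to cut out the preoptic region of the hypothalamus, and RNA from each mouse went through 2 amplification rounds onto an array of its own. Neither the age of the mice nor the deleted part of the gene is given in the labels, and no mice without LPS were analysed here. Because bulk tissue was measured, fewer cells of a type and less RNA per cell cannot be told apart.

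The receptors fall into families that work differently. GM-CSF, IL-3 and IL-5 each bind an alpha chain of their own, which then pairs with a shared beta chain that signals through JAK2 and STAT5. Mice carry an additional beta chain, Csf2rb2, that serves IL-3 alone. CSF1 and IL-34 both act on the receptor tyrosine kinase CSF1R, on which microglia, the resident macrophages of the brain, depend for survival. G-CSF acts on the single-chain receptor CSF3R, best known from neutrophils.

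Promoters of Csf2ra and of Csf2rb2 are shown so that a reader can see their letters beside the values. Both are receptor genes of myeloid cells, in which the transcription factor PU.1 binds purine-rich sites. Other members are such genes too, so this does not set these 2 apart. The promoters are reference sequence, not that of these mice. Sequences are from RefSeq (GRCm38.p6), 250 bases before to 50 after the annotated start, and 5 of the 8 genes had an entry. Capitals mark the letters GAGGAA, the core of such sites, on either strand (TTCCTC on the printed strand when it lies on the other).
Csf2ra, chr19:61228369-61228668, minus strand: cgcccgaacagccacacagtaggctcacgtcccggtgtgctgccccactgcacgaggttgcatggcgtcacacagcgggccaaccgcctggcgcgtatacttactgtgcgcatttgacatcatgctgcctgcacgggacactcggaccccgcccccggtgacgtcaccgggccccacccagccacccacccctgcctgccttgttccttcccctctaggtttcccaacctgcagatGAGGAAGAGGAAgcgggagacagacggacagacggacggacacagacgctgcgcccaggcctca
Csf2rb2, chr15:78305672-78305971, minus strand: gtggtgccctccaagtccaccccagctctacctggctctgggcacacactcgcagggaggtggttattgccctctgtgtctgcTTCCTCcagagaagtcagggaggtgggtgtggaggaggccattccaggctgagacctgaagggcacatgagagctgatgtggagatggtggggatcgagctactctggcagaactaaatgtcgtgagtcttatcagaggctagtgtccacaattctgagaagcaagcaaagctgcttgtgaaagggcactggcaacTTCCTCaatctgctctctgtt
The Csf2ra promoter held the letters 2 times next to each other just before the start. The Csf2rb2 promoter held them 2 times on the other strand, far apart, with the first before the start and the other after it. Of all 32851 promoters in the table, 28.3% held them at least 1 time on either strand, and a match is a description of letters only. The other members with an entry were not counted, and the motif was chosen with earlier results known. No share of members can therefore be set beside the 28.3%.

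Before the members, the arrays themselves were compared. Ptges was not lower in the arrays labelled KO, since probe set 1439747_at gave 76.1, 17.5, 56.2, 67.8 and 32.2 in KO replicates 1 to 5 and 5.29, 2.22, 9.33, 4.36 and 1.51 in WT replicates 1 to 5 (log2 difference 1.60, SE 0.31, limma adjusted p = 0.111). Its other probe sets, at 0.95 (SE 0.37) and 0.27 (SE 0.35), were higher too, although a probe set outside the deleted part checks no label. The groups are therefore called labelled KO and labelled WT, and each direction rests on those labels. The median intensity of an array was 24.7 to 29.9 in the KO group and 32.0 to 44.8 in the WT group, without overlap, although every array had been scaled to the same trimmed mean. Over all probe sets the median log2 difference was -0.13 as deposited, -0.01 with quantile normalization and 0.11 after centring arrays on their medians, so each member is set beside these. Poly-A spike-in controls averaged above 100 on 7 arrays and below it on KO replicate 3 and WT replicates 2 and 5. Over all probe sets 0 of 45037 passed the limma threshold (Benjamini-Hochberg adjusted p below 0.05), a share of 0%, with 5696 (12.6%) at an unadjusted p below 0.05.

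Csf2ra encodes the GM-CSF-specific alpha chain, which gives the receptor its ligand. Its brighter probe set 1420704_at gave intensities of 271, 184, 239, 196 and 248 in KO replicates 1 to 5. In WT replicates 1 to 5 it gave 383, 481, 507, 538 and 431. Every KO array lay below every WT array, and the nearest pair were KO replicate 1 and WT replicate 1. The groups averaged 228 ± 36.3 in KO mice and 468 ± 61.6 in WT mice (SD, n = 5 each), and the log2 difference was -0.99 (SE 0.17, 95% interval -1.35 to -0.64), or 0.502-fold. All log2 differences here are of log2(intensity + 16), KO minus WT, which understates the change of dim probe sets.

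The difference in this Csf2ra probe set held its direction under each array scaling. It was -1.05 with quantile normalization and -0.60 after median centring, and relative to the median of all probe sets it was -0.87 as deposited, -1.04 and -0.71 under these scalings. It was -0.99 when spike-in signal was a block, and -1.03 when only the 7 arrays that had this signal were fitted. Leaving out each array in turn gave values between -1.06 and -0.93. The Csf2ra difference chose the members, so its direction was largely set in advance, and nothing is read from its being kept. The annotation gives the gene another, dimmer probe set, 1420703_at, and it did not show the same gap. There the KO arrays gave 24.4, 100, 12.5, 37.7 and 30.0 and the WT arrays 28.4, 53.9, 70.7, 50.5 and 29.8. The groups overlapped widely, and KO replicate 2 was the highest of all 10 arrays, although in the brighter probe set it was the lowest. The log2 difference of 1420703_at was -0.26 (SE 0.35, interval -1.01 to 0.48), and it turned to 0.03 after median centring and was -0.56 without KO replicate 2.

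**Figure D1:**
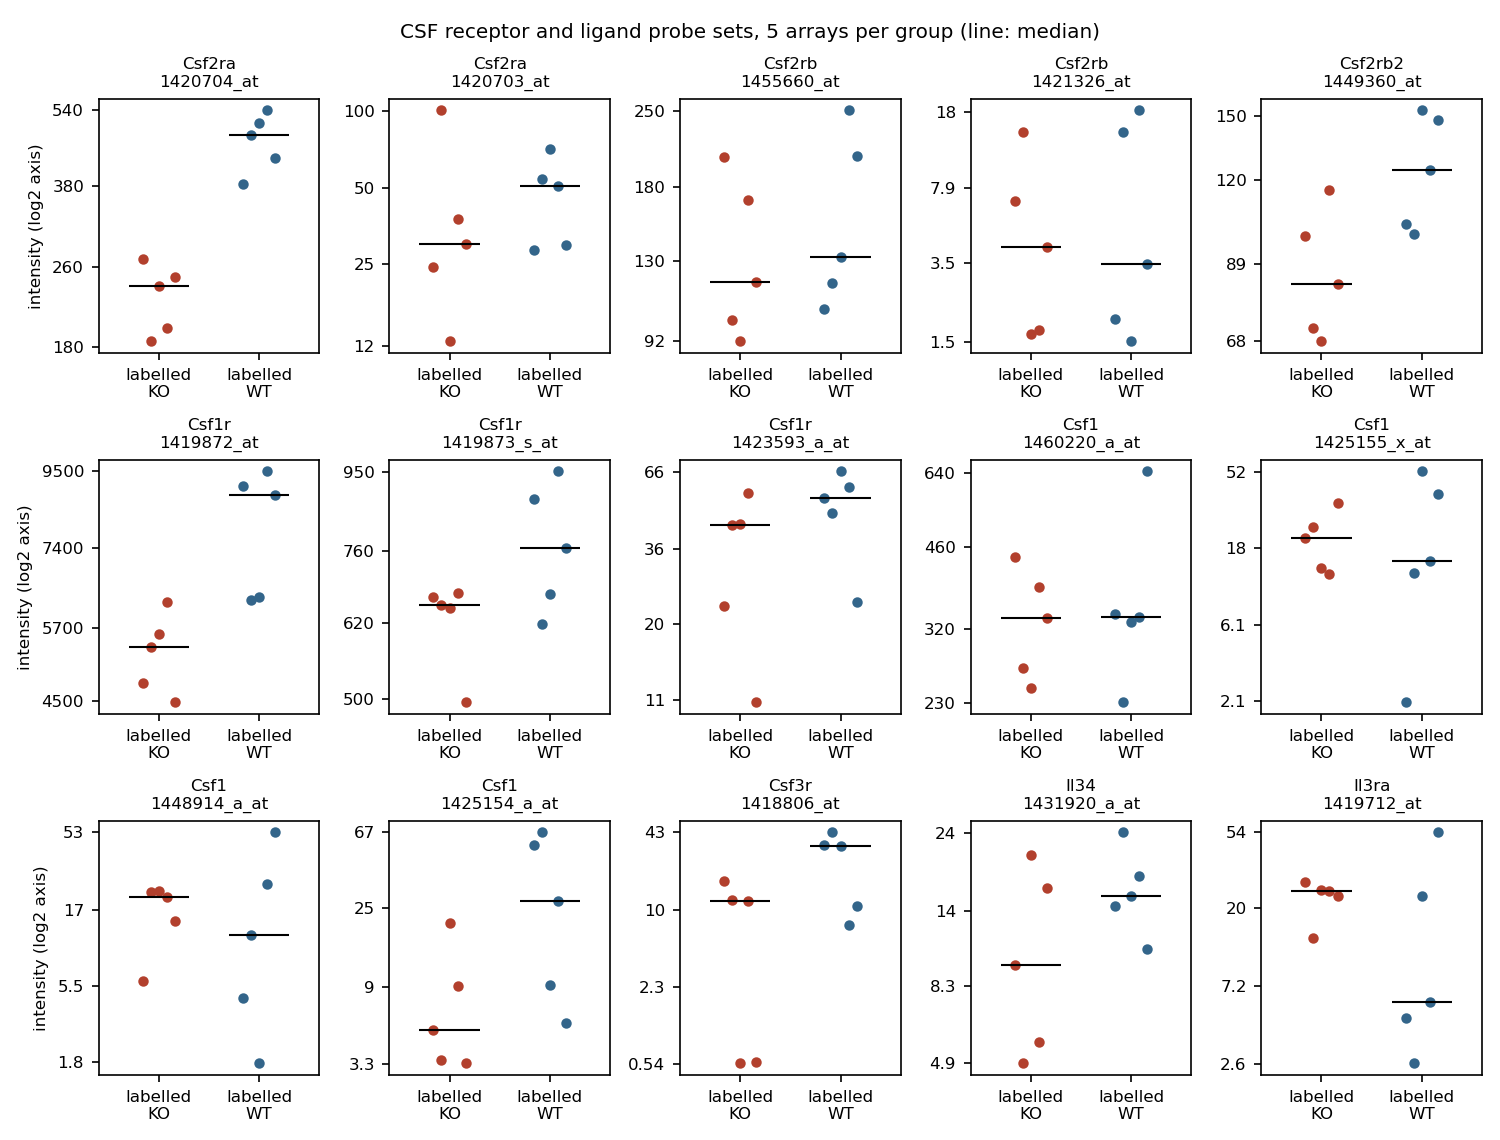
Intensity of each of the 15 member probe sets on the 10 arrays, labelled KO (red) left of labelled WT (blue), on log2 axes that differ between panels, with a line at each group's median. Only Csf2ra 1420704_at and Csf1r 1419872_at show 5 KO arrays that all lie below the 5 WT arrays.

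Csf2rb encodes the beta chain shared by the GM-CSF, IL-3 and IL-5 receptors, and so the signalling partner of Csf2ra. Its brighter probe set 1455660_at gave 205, 101, 91.7, 170 and 119 in the KO arrays and 106, 119, 133, 251 and 206 in the WT arrays. The ranges were nearly the same, and high and low arrays occurred in both groups. The log2 difference was -0.21 (SE 0.26, interval -0.76 to 0.34), and it turned to 0.16 after median centring. The other probe set, 1421326_at, was at percentile 11.5 of mean signal, with values between 1.62 and 14.5 in KO arrays and between 1.50 and 18.3 in WT arrays, and at -0.11 (SE 0.24) its sign turned to 0.04 with quantile normalization and 0.02 after median centring. For the alpha and beta chains of the GM-CSF receptor the brighter probe sets thus gave -0.99 and -0.21, with intervals that overlap between -0.76 and -0.64, and the difference between the chains was not tested.

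Csf2rb2, the IL-3-specific beta chain, lay between these. Probe set 1449360_at gave 98.5, 71.1, 67.8, 116 and 82.9 in the KO arrays, and 103, 99.2, 153, 124 and 148 in the WT arrays. In 4 of 5 KO arrays it was below every WT array, and KO replicate 4 lay within the WT range. The log2 difference was -0.46 (SE 0.22, interval -0.92 to 0.005), -0.36 with quantile normalization and -0.10 after median centring, when its value relative to the median of all probe sets was -0.21. Csf2rb and Csf2rb2 are close copies of each other, so their probe sets could share signal. With group means removed, their brighter probe sets moved together over the 10 arrays (Pearson r = 0.686, Spearman rho = 0.685), as a description of arrays that share amplification and scaling.

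Il3ra, the IL-3-specific alpha chain, was the only member gene with every probe set higher in the KO group under all 3 scalings. Its only probe set, 1419712_at, gave 28.3, 13.6, 25.5, 25.1 and 23.4 in the KO arrays and 4.73, 2.61, 23.4, 5.87 and 54.0 in the WT arrays. The WT arrays spread widely, and WT replicate 5 was the highest of all. The log2 difference was 0.38 (SE 0.35, interval -0.34 to 1.11), at percentile 39.9 of mean signal.

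Csf1r, the receptor for CSF1 and IL-34, had the brightest probe set among those of the members, at percentile 98.7 of mean signal. Probe set 1419872_at gave 4764, 5360, 5595, 6213 and 4477 in the KO arrays. In the WT arrays it gave 9046, 6241, 6305, 9479 and 8793. All KO arrays lay below all WT arrays, but KO replicate 4 at 6213 and WT replicate 2 at 6241 nearly touched, and the WT arrays fell into a pair near the KO range and 3 well above it. The group averages were 5282 ± 687 in KO mice and 7973 ± 1571 in WT mice (SD, n = 5 each), a log2 difference of -0.58 (SE 0.16, interval -0.91 to -0.25), or 0.67-fold. The difference was -0.44 with quantile normalization, -0.16 after median centring and -0.66 on the 7 spike-in arrays alone.

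The other Csf1r probe sets gave smaller or less certain differences. Probe set 1419873_s_at gave 667, 652, 647, 675 and 495 in the KO arrays and 879, 618, 672, 950 and 767 in the WT arrays. The KO arrays were close together apart from replicate 5, and WT replicate 2 was below 4 of them. Its log2 difference was -0.29 (SE 0.16), and it turned to 0.12 after median centring. Probe set 1423593_a_at, much dimmer, ran from 10.8 to 56.2 in KO arrays and from 23.8 to 66.5 in WT arrays, at -0.40 (SE 0.32). With group means removed, 1419872_at and 1419873_s_at moved together over the 10 arrays (r = 0.859, rho = 0.83).

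The ligands of CSF1R are Csf1 and Il34, and whether their differences differ from that of the receptor was not tested. Csf1, which encodes the ligand CSF1, made by many cell types of the brain, had its main signal in 1460220_a_at, with 440, 268, 246, 385 and 336 in the KO arrays and 342, 231, 330, 338 and 643 in the WT arrays. WT replicate 2 was the lowest and WT replicate 5 the highest of all 10 arrays, with the KO arrays between them. The log2 difference was -0.11 (SE 0.23, interval -0.60 to 0.37), -0.17 with quantile normalization, 0.28 after median centring and 0.09 without WT replicate 5. The 3 dimmer Csf1 probe sets disagreed with each other. 1425154_a_at was at -0.86 (SE 0.37), with 3.31 to 20.4 in KO arrays and 5.60 to 66.7 in WT arrays, while 1425155_x_at was at 0.01 (SE 0.35) and 1448914_a_at at 0.06 (SE 0.34). Which part of the transcript each probe set reads was not examined.

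Il34, which encodes the other CSF1R ligand and is made in the brain mainly by neurons, was dim. Its probe set 1431920_a_at gave 9.61, 4.88, 20.5, 5.66 and 16.4 in the KO arrays and 14.4, 24.0, 15.5, 17.8 and 10.7 in the WT arrays. In 3 KO arrays it was below every WT array, and the other KO arrays lay inside the WT range. The log2 difference was -0.27 (SE 0.25, interval -0.80 to 0.26), and -0.04 and -0.06 under the other scalings. The probe set was at percentile 32.0 of mean signal.

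Csf3r, the G-CSF receptor, was dim as well. Probe set 1418806_at gave 17.3, 12.0, 0.544, 11.8 and 0.557 in the KO arrays and 33.8, 43.0, 33.2, 7.53 and 10.7 in the WT arrays. WT replicates 1 to 3 stood above every KO array, and WT replicates 4 and 5 lay below KO replicates 1, 2 and 4. The log2 difference was -0.74 (SE 0.32, interval -1.41 to -0.07), and -0.56 and -0.57 under quantile normalization and median centring. It was -1.90 with a pseudocount of 1 and -0.30 with one of 64.

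**Figure D2:**
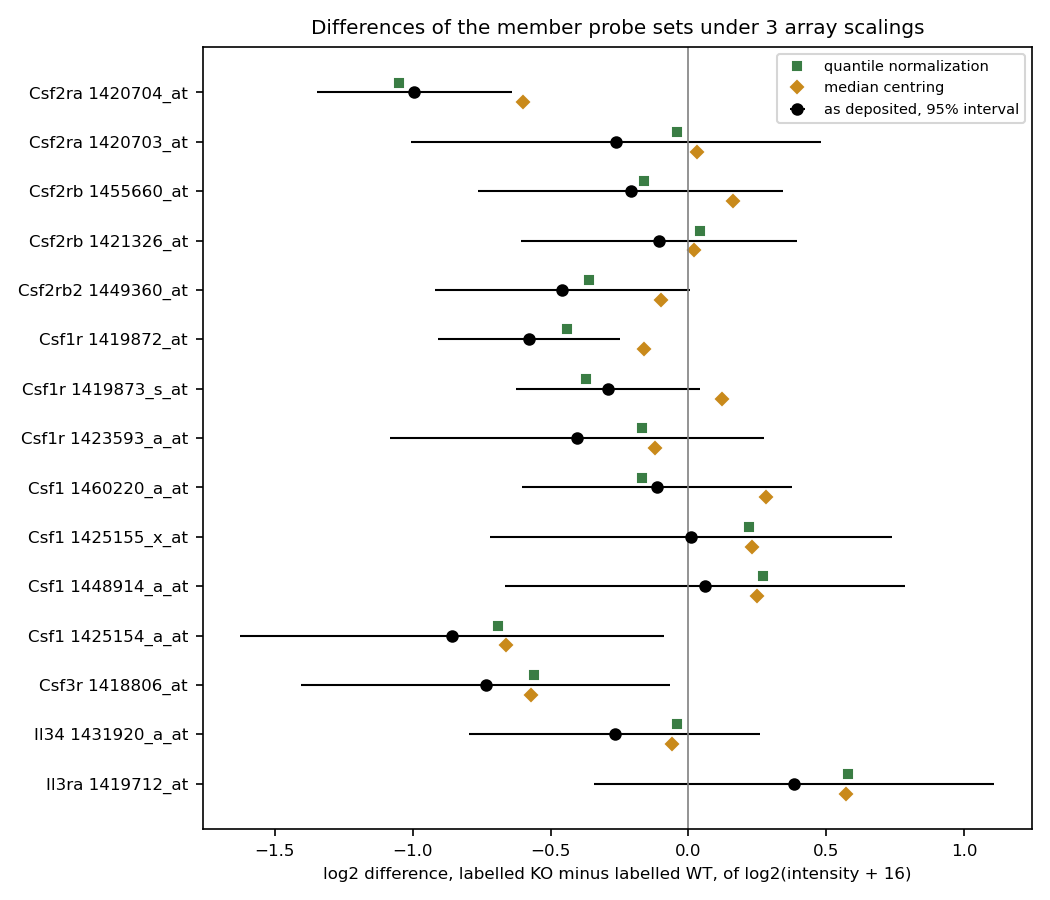
Log2 difference of each member probe set, labelled KO minus labelled WT, with its 95% interval from the fit on the values as deposited (black), beside quantile normalization (green) and median centring (yellow). Csf2ra 1420704_at lies at -0.99 as deposited and keeps the same side under both other scalings, while Csf2rb 1455660_at and Csf1r 1419873_s_at cross 0 after median centring.

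Across the family, 12 of 15 member probe sets were lower in the KO group as deposited, where 65.1% of all probe sets were, and after median centring 7 of 15 were. The groups did not overlap, with KO below, in 2 of 15 member probe sets, against 2.42% of all probe sets, and with KO above in 0 of 15, against 0.808%. Since the contrast chose the members, nothing is read from these shares. The median log2 difference was -0.27 over the 15 probe sets and -0.13 over all probe sets. By mean signal 6 of the 15 belonged to the dimmest 40% of probe sets, and the other 9 included every probe set of Csf2ra and Csf1r.

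Csf2ra and Csf1r were also set against 19 microglia markers, since both receptors are found on microglia. The mean log2 level of these markers was 6.39, 6.46, 6.38, 6.62 and 6.24 in KO replicates 1 to 5 and 6.70, 6.77, 6.56, 6.74 and 6.51 in WT replicates 1 to 5. Markers were thus slightly lower in the KO group, by 0.24, with KO replicate 4 inside the WT range. Of the 19, 15 were lower and 4 higher, 0 passed the limma threshold and 1 lower, Olfml3 at -0.58 (SE 0.23), was at an unadjusted p below 0.05, with a median of -0.34. Over all probe sets 65.1% were lower in the KO group, with a median of -0.13. With 1 probe set a gene and the dimmest 40% of genes left out, that median was -0.007. The summed intensity of the 19 markers was 4077 to 5807 in KO arrays and 4446 to 6029 in WT arrays, which overlap. None was at 0, and Itgam, Trem2 and Gpr34 were in the dimmest 40% of probe sets.

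Relative to this marker mean, Csf2ra 1420704_at was 1.50 ± 0.33 log2 units above it in KO arrays and 2.25 ± 0.20 above it in WT arrays (SD, n = 5 each), a difference of -0.76. The KO values ran from 1.11 to 1.80 and the WT values from 1.94 to 2.47, so the groups stayed apart. The Csf2ra difference, -0.99 in this probe set, chose the members, and the marker mean differed by only -0.24. A gap after subtraction was therefore largely set in advance, and nothing is read from it. The distance of the dimmer Csf2ra probe set, whose groups overlapped, from the marker mean was not taken. For Csf1r 1419872_at the distance was 5.94 ± 0.09 in KO arrays and 6.28 ± 0.32 in WT arrays, a difference of -0.34, with ranges that overlapped. The difference between Csf2ra and Csf1r was -4.45 ± 0.37 in KO arrays and -4.03 ± 0.40 in WT arrays, with overlap. With group means removed, Csf2ra 1420704_at and the marker mean had r = -0.317 and rho = -0.297 over the 10 arrays, and Csf1r 1419872_at had r = 0.374 and rho = 0.358. The part that microglia number or state has in the Csf2ra and Csf1r differences was not tested.

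**Figure D3:**
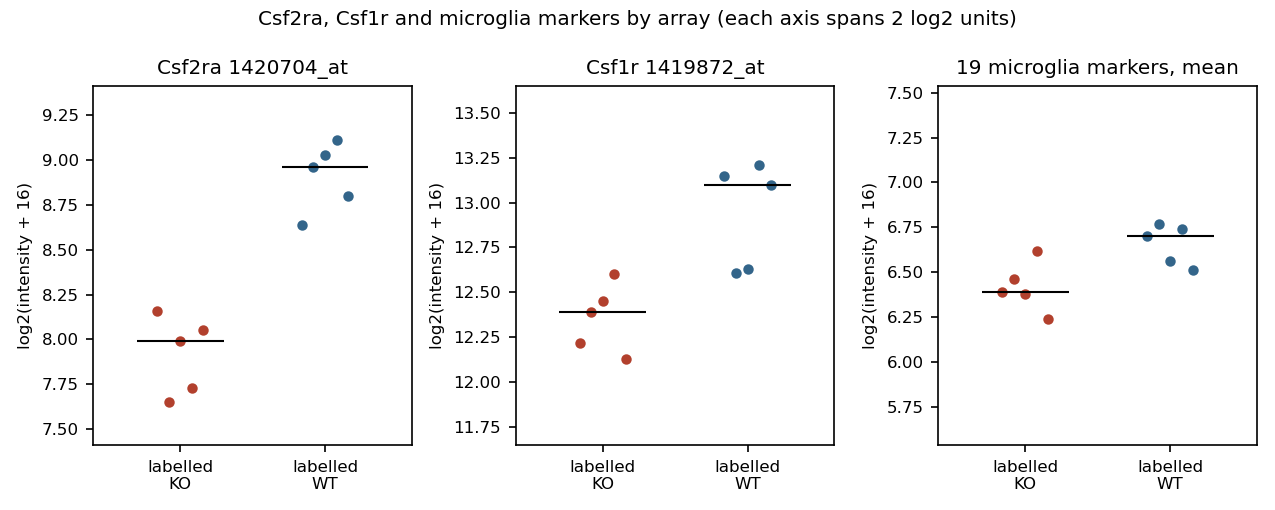
Csf2ra 1420704_at, Csf1r 1419872_at and the mean of 19 microglia markers on each array, as log2(intensity + 16), labelled KO left of labelled WT, with each axis spanning the same 2 log2 units and a line at the median. Csf2ra shows the widest gap between the groups, Csf1r a narrow one, and the marker mean overlaps.

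The genes whose pattern over the 10 arrays was most like that of Csf2ra 1420704_at were not myeloid markers. With group means removed, and among 10915 genes above the dimmest 40%, they were Gpx7 (r = 0.95, rho = 0.927), Podn (r = 0.916, rho = 0.915), Rb1cc1 (r = 0.903, rho = 0.952), Klkb1 (r = 0.901, rho = 0.77) and Wdhd1 (r = 0.896, rho = 0.842). For Csf1r 1419872_at they were Pcnt (r = 0.956, rho = 0.976), Extl3 (r = 0.955, rho = 0.964), Dohh (r = 0.952, rho = 0.915), Exosc4 (r = 0.926, rho = 0.915) and Cmtr1 (r = 0.924, rho = 0.927). These are the highest of many values over 10 arrays that share amplification and scaling, and they describe only these arrays.

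The remaining ligands and receptor chains of the family were dim, except Csf3 at percentile 52.7 of mean signal. Csf2, Csf3, Il3, Il5 and Il5ra encode GM-CSF, G-CSF, IL-3, IL-5 and the IL-5 alpha chain. Of these 5 genes 4 were in the dimmest 40% of probe sets, 0 passed the limma threshold (smallest adjusted p = 0.534) and 0 were at an unadjusted p below 0.05. Csf2 gave 4.67, 1.57, 2.67, 5.53 and 13.3 in the KO arrays and 3.48, 8.68, 1.26, 2.00 and 2.68 in the WT arrays. Its values overlapped, at percentile 5.87 of mean signal, so no level of GM-CSF transcript can be read from them beside the Csf2ra difference. Csf3 gave 74.1, 25.1, 5.37, 21.8 and 16.1 in the KO arrays and 26.9, 43.9, 28.9, 50.2 and 67.1 in the WT arrays, where KO replicate 1 was the highest of all 10 and the other KO arrays lay below the WT arrays (log2 -0.54, SE 0.36, limma adjusted p = 0.534). Il5ra was at -0.17 (SE 0.30), Il5 at 0.10 (SE 0.23) and Il3 at 0.001 (SE 0.14).

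Genes that GM-CSF is known to raise in myeloid cells gave the lowest median of the pathway lists. Of 9 such genes 8 were lower and 1 higher in the KO group, 0 passed the limma threshold and 2 lower were at an unadjusted p below 0.05, with a median of -0.39. Over all 18193 named genes 8.68% were lower and 5.32% higher at that level. As deposited, 65.1% of all probe sets were lower in the KO group, with a median of -0.13. This background holds for every list here. Its 65.1% and -0.13 cover all probe sets, while the lists took the brightest probe set a gene. With 1 probe set a gene and the dimmest 40% of genes left out, the median was -0.007. Microglia markers and neutrophil and monocyte markers, outside the pathway lists, each had a median of -0.34. List medians were not taken under the other scalings. Ccl17, a chemokine gene that GM-CSF induces in macrophages and dendritic cells, gave 164, 115, 95.9, 135 and 101 in the KO arrays and 253, 323, 242, 246 and 225 in the WT arrays. All KO arrays lay below all WT arrays, as they did in 2.53% of all named genes. Ccl17 was no member, but the list was drawn up with the Csf2ra difference known, so nothing is read from this gap. The log2 difference of Ccl17 was -0.998 (SE 0.19, limma adjusted p = 0.114), -0.99 with quantile normalization, and -0.62 after median centring, with -0.88 on the 7 spike-in arrays alone. Leaving out each array gave -1.10 to -0.92, with a limma adjusted p between 0.0854 and 0.301. Ccl22, encoded next to Ccl17 and read by the same receptor, gave 42.7, 8.52, 7.18, 8.64 and 19.1 in the KO arrays and 49.4, 41.4, 36.3, 21.5 and 41.5 in the WT arrays. KO replicate 1 was inside the WT range and the other 4 KO arrays were below it (log2 -0.78, SE 0.31, limma adjusted p = 0.32). Cd74 was at -0.55 (SE 0.26) and Itgax, on the other side, at 0.37 (SE 0.27).

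Genes that carry or answer signals from these receptors went in both directions. Of 28 measured, 21 were lower and 7 higher, 0 passed the limma threshold, and 4 lower and 0 higher were at an unadjusted p below 0.05, with a median of -0.15. That median was near the -0.13 of all probe sets. It was below the -0.007 of named genes, taken with 1 probe set a gene and the dimmest genes left out. The list took the brightest probe set a gene, and whether its median differs from either value was not tested. Cish encodes a feedback inhibitor that STAT5 induces. It gave 249, 156, 216, 187 and 164 in the KO arrays and 376, 318, 413, 362 and 309 in the WT arrays. The groups did not overlap in Cish, the only gene of the list for which this was so, against 2.53% of named genes with the KO group below. Its log2 difference was -0.83 (SE 0.18, limma adjusted p = 0.132), -0.87 with quantile normalization, -0.44 after median centring and -0.98 on the 7 spike-in arrays alone. Pim1, a kinase gene induced by the same pathway, gave 71.0, 57.4, 50.5, 67.2 and 41.0 in the KO arrays and 70.4, 95.7, 134, 97.3 and 110 in the WT arrays. Only KO replicate 1 reached the lowest WT array (log2 -0.67, SE 0.24, limma adjusted p = 0.255), and the dimmer Pim1 probe set 1423006_at was at -0.41 (SE 0.31). The other genes at an unadjusted p below 0.05 were Pik3cd, a subunit of a lipid kinase of blood cells, at -0.56 (SE 0.22, limma adjusted p = 0.293), and the dim tyrosine kinase gene Fes at -0.67 (SE 0.32, limma adjusted p = 0.395). Among the kinases and factors next to the receptors, Jak1 was at 0.31 (SE 0.22), Jak2 at -0.10 (SE 0.20), Stat5a at -0.14 (SE 0.31) and Stat5b at -0.14 (SE 0.21). With group means removed, Cish and Csf2ra 1420704_at had r = 0.49 and rho = 0.491 over the 10 arrays, and Ccl17 and Csf2ra r = 0.138 and rho = 0.018.

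**Figure D4:**
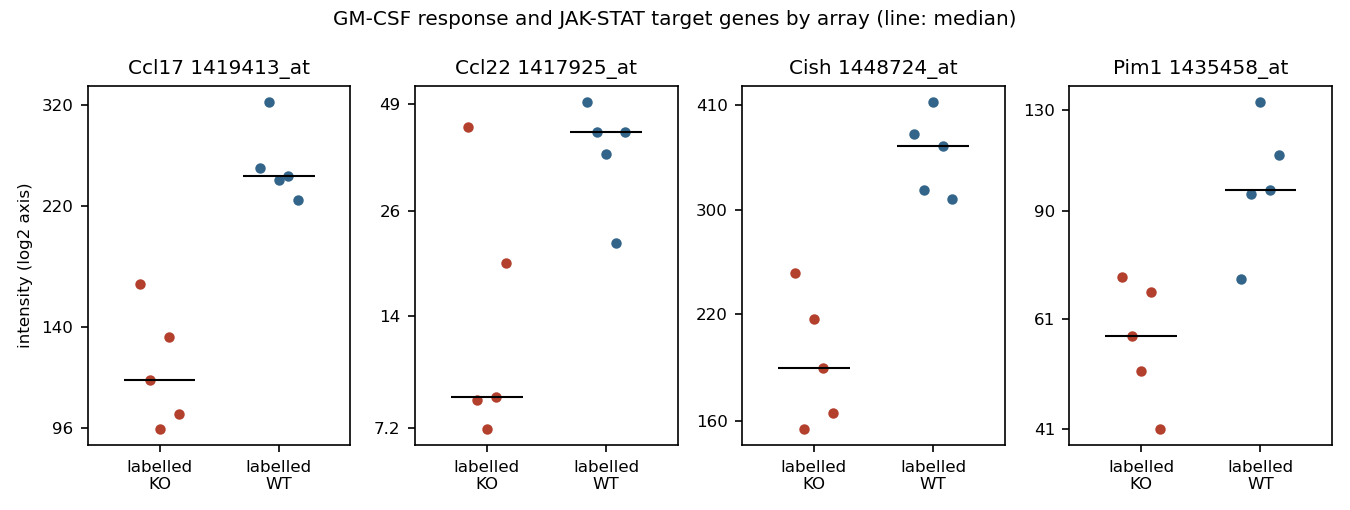
Intensity of Ccl17, Ccl22, Cish and Pim1 on each array, labelled KO left of labelled WT, on log2 axes that differ between panels, with a line at the median. In Ccl17 and Cish the 5 KO arrays all lie below the 5 WT arrays, while in Ccl22 and Pim1 KO replicate 1 lies within the WT range.

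Partners of CSF1R and the transcription factors that switch on these receptors in myeloid cells did not pass either. Of 8 genes for CSF1R partners, other IL-34 receptors and shedding enzymes 5 were lower and 3 higher, with 0 past the limma threshold and 0 at an unadjusted p below 0.05 (median -0.17). Tyrobp, the adaptor of TREM2 that also takes part in CSF1R signalling, was at -0.38 (SE 0.18), turning to 0.02 after median centring. Sdc1, which binds IL-34, was at 0.65 (SE 0.33). Of 15 myeloid transcription factor genes 11 were lower and 4 higher, again with 0 past the limma threshold and 0 at an unadjusted p below 0.05 (median -0.24). Spi1, which encodes PU.1, gave 26.3, 22.6, 14.7, 25.1 and 27.6 in the KO arrays and 34.1, 31.7, 46.1, 20.3 and 90.4 in the WT arrays. WT replicate 4 lay among the KO arrays, and WT replicate 5 was far above the rest (log2 -0.53, SE 0.31, limma adjusted p = 0.481). Runx1, a partner of PU.1 in myeloid gene control, was at -0.62 (SE 0.36, limma adjusted p = 0.482).

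**Figure D5:**
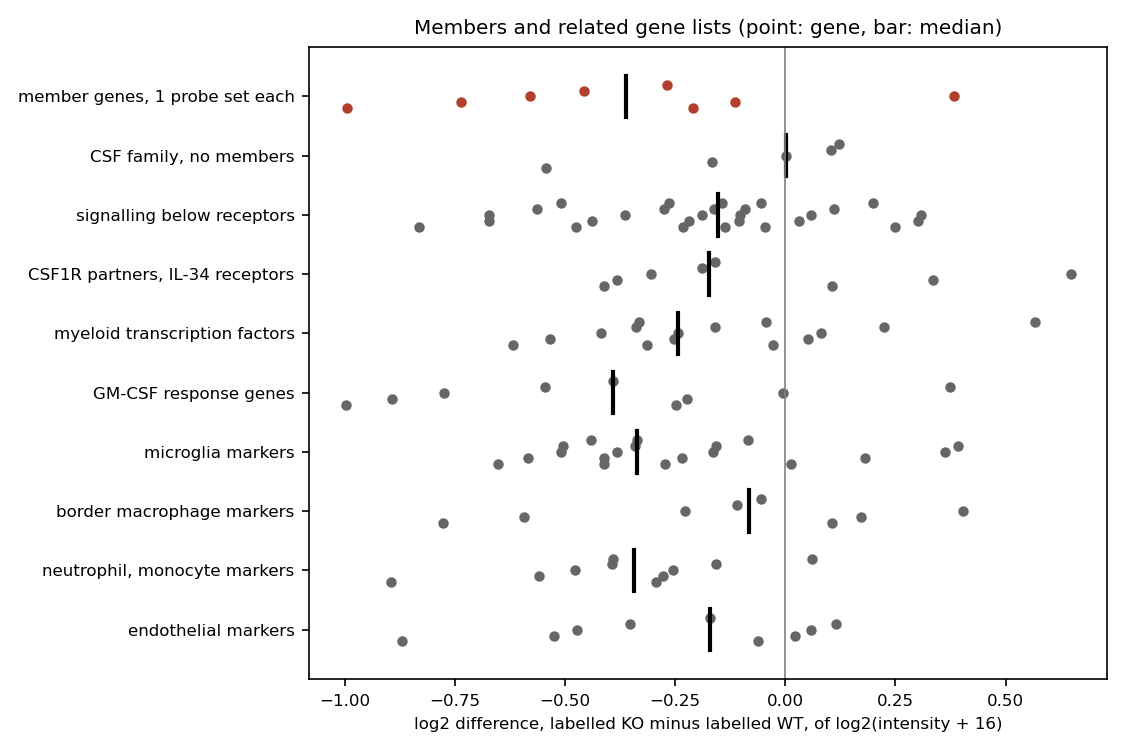
Log2 difference, labelled KO minus labelled WT, of the 8 member genes (red, 1 probe set each) and of genes in 9 related lists (grey), with a bar at each median. The GM-CSF response list lies furthest to the left of the pathway lists, with a median of -0.39, and the family genes that are no members are centred on 0. Microglia markers and neutrophil and monocyte markers, each with a median of -0.34, lie close to the GM-CSF response list.

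Other cell types that the dissected region could hold were followed through their markers, and 0 markers of any list passed the limma threshold. Border macrophage markers were lower in 5 of 8 genes (median -0.08), with summed intensities of 359 to 644 in KO arrays and 383 to 635 in WT arrays. Neutrophil and monocyte markers were lower in 9 of 10 genes (median -0.34), with sums of 209 to 684 in KO arrays and 236 to 1399 in WT arrays. Ccr2, a monocyte marker, gave 3.72, 7.54, 2.52, 3.63 and 2.91 in the KO arrays and 42.9, 87.6, 12.2, 4.18 and 4.56 in the WT arrays. WT replicates 1 to 3 stood above every KO array and WT replicates 4 and 5 lay inside the KO range (log2 -0.90, SE 0.37, limma adjusted p = 0.335). Their part in the Csf2ra, Csf1r and Csf3r differences was not tested. Endothelial markers were lower in 6 of 9 genes and higher in 3 (median -0.17), with sums of 593 to 888 in KO arrays and 816 to 1510 in WT arrays. Of the lower ones, Esam at -0.87 (SE 0.25, limma adjusted p = 0.183) had all KO arrays below all WT arrays. Flt1 was at -0.53 (SE 0.23, limma adjusted p = 0.356). Pericyte markers had a median log2 difference of -0.22, astrocyte markers of -0.03, oligodendrocyte markers of -0.01, neuron markers of 0.13, choroid plexus markers of 0.10 and striatal markers of 0.68. Single markers stood away from these medians in both directions. The astrocyte genes Gfap, at -0.73 (SE 0.17, limma adjusted p = 0.143), and Aldoc, at -0.29 (SE 0.13, limma adjusted p = 0.356), had all KO arrays below all WT arrays, although Aldoc turned to 0.13 after median centring, while the astrocyte gene Gja1 was at 0.46 (SE 0.20, limma adjusted p = 0.352). The neuron genes Gad1 and Snap25 were at 0.97 (SE 0.27, limma adjusted p = 0.179) and 0.60 (SE 0.17, limma adjusted p = 0.182). Of the 9 neuron markers 7 were higher and 2 lower. Among the lower, Stmn2 at -0.35 (SE 0.18, limma adjusted p = 0.44) had all KO arrays below all WT arrays. Over all named genes 2.53% had the KO arrays apart in this way. The oligodendrocyte genes Ugt8a and Mog were at 0.81 (SE 0.23, limma adjusted p = 0.182) and -0.80 (SE 0.32, limma adjusted p = 0.311). Of the 9 measured preoptic and hypothalamic markers none was among the dimmest 40%, with a median of 0.02, and sums of 2201 to 3180 in KO arrays and 2059 to 2465 in WT arrays. Striatal marker sums were 782 to 2447 in KO arrays and 577 to 947 in WT arrays, with Pde10a at 1.60 (SE 0.32, limma adjusted p = 0.114), and the part of these cells in the member differences was not tested.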

How the data were processed

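The deposited file holds probe set intensities on a linear scale, made by the authors with GCOS per the submitters' processing notes. No detection calls were used, and the GCOS version is not known here. The 10 arrays shared a mean of 200.002 without the lowest and highest 2% of probe sets, and no other normalization was seen. Of 45101 probe sets, 64 were controls. The platform annotation, which can be old, gave 1 gene to 34945, several to 932 and none to 9160, of which the last 2 kinds were not named. By Entrez ID 34741 of the 34945 matched RefSeq (GRCm38.p6).

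Log2(intensity + 16) of all 45037 other probe sets was fitted with limma (lmFit, eBayes with intensity trend), genotype as the only term, Benjamini-Hochberg adjusted p below 0.05. Replicates are separate mice by their labels. No 2 arrays held equal values at more than 0.00444% of probe sets. The 16 lists, with 173 genes, used the brightest probe set a gene (names ending in x_at only if no other). Genes were named by this rule: all members, Ptges, the family genes, from each list those past the threshold or else the 2 with the smallest p (given where a result turns on them), and the 5 most like Csf2ra and Csf1r. Jak1, Jak2, Stat5a, Stat5b, Pik3cd, Fes, Cd74, Itgax, Aldoc, Stmn2 and the dim microglia markers were named after their values were seen. Members, lists, tests and the motif were chosen with earlier results of these data known. On simulated data of the same 45037 probe sets, 5 against 5, the fit recovered 39% of probe sets changed by log2 1 and 88% by log2 2. The number of arrays limits the precision. Analyses used R 4.3.3, limma 3.58.1, data.table (1.17.8), Python 3.11.15, pandas 2.3.3, numpy 2.4.6 and matplotlib 3.10.9.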

Additional observations from a re-analysis of the deposited data

Results flagged for a closer look

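Dixon's test for a sample far from the others of its group was run on the log2 values of the 15 member and 3 Ptges probe sets in each group, 36 groups of 5 arrays, and marked 2, where chance marks about 1 in 20. Csf1r 1419873_s_at was lowest on KO replicate 5, at 495.5, against 647 to 675 on the other KO arrays. Il3ra 1419712_at was lowest on KO replicate 2, at 13.6, against 23.4 to 28.3 on the other KO arrays.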

How the results depend on the processing

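Csf2ra 1420704_at stayed below 0 under every setting tried, at -0.60 after median centring and -1.06 to -0.93 without single arrays. Its difference chose the members, so nothing is read from this. Of 285 values of the 15 member probe sets under other settings, 277 moved by less than 1 SD between replicates and 23 changed sign. The cause was not tested. The count past limma's threshold, 0 of 45037, was 1746 after median centring (1705 higher, 41 lower), 8 with 1 probe set a gene and the dimmest 40% of genes left out, 1 with the replicate number as a block (Pde10a) and 0 to 1 without single arrays (Synpr without KO replicate 1, Tac1 without KO replicate 4). The 8 with 1 probe set a gene included Csf2ra 1420704_at, but its difference chose the members, so nothing is read from that. List genes past limma's threshold were 0, 11 after median centring, all higher, and 1 with the replicate block. Same-numbered arrays did not deviate together (correlations -0.05 to 0.03), although replicate 4 matched its own number best. Such correlations cannot exclude that the numbers pair mice, and the main fit did not use them as pairs. Quantile normalization with a spike-in block was chosen after seeing the data.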
